A study of Mus musculus with 12 samples.

Results

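The INK4 inhibitors, the D cyclins and the kinases between them form the switch that admits a cell to S phase, and they were followed here as 10 genes: Cdkn2a, Cdkn2b, Cdkn2c, Cdkn2d, Cdkn1b, Ccnd1, Ccnd2, Ccnd3, Cdk4 and Cdk6. They were taken by symbol from the 35856 rows of the expression table, and all 10 passed the filter on low values that left 15663 genes. With auxin, Cdkn2a rose 13.0-fold and its neighbour Cdkn2b 4.95-fold in the SUZ12 degron line, Ccnd2 rose 1.74-fold, and Ccnd1 fell to 0.707 of its untreated level. Cdk4 fell there to 0.878 of its untreated level, a call that other scalings of the data lost. In the JARID2 degron line Cdkn2a did not pass the test, Cdkn2b rose from 0.0775 to 0.957 TPM (a level corrected for gene length and depth) on 1 and 16 reads, and Ccnd3, Cdk6 and Cdk4 fell to 0.624, 0.648 and 0.815 of their untreated levels. In the MTF2 degron line none of the 10 genes passed.

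The cells were cardiac precursors differentiated from C57BL/6 mouse embryonic stem cells (48 h as embryoid bodies, 43 h after reaggregation with growth factors and 32 h as a monolayer). Their genotypes were SUZ12-AID, Tir1; MTF2-AID, Tir1; and AID-JARID2, Tir1, so that every group carried a degron tag and the plant receptor TIR1, which marks the tagged protein for destruction when auxin is present. SUZ12 is a core subunit of Polycomb repressive complex 2 (PRC2), which methylates histone H3 at lysine 27, and MTF2 and JARID2 are accessory subunits that help to bring the complex to its sites. Each line was sequenced untreated and after 50 µM indole-3-acetic acid (called auxin here), with 2 libraries a group and 12 in all. The labels give neither the start nor the length of the treatment, there was 1 line per subunit, and no line without a tag received auxin, so loss of a subunit cannot be told apart from other effects of auxin or of the line. Protein levels were not measured in these files.

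INK4 proteins (p16 and p15 from Cdkn2a and Cdkn2b, p18 and p19 from Cdkn2c and Cdkn2d) bind CDK4 and CDK6 and keep them from D cyclins. Free cyclin D-CDK4/6 phosphorylates the RB protein, which then releases E2F factors that switch on genes of DNA replication. Cdkn2a also encodes ARF from a separate first exon, and ARF stabilises p53 by restraining MDM2. The locus is a classical target of Polycomb silencing, and its products rise in ageing and oncogene-stressed cells. A value for the gene Cdkn2a adds up both products.

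The Cdkn2a/Cdkn2b locus lies on chromosome 4 of mm10, on the minus strand, with Cdkn2a at 89274471 to 89294653 and Cdkn2b at 89306299 to 89311039. The bases before its 3 starts differ in CpG content, and CpG-rich starts are the usual seats of Polycomb complexes. These bases are therefore shown, 5′ to 3′ on the minus strand, with CpG dinucleotides in capitals. They come from RefSeq on GRCm38.p6, where 8 of the 10 genes had an entry, and are limited to bases outside exons. The windows are chr4:89294654-89294869 before the upstream start of Cdkn2a (the ARF start), chr4:89282193-89282442 before its downstream start (the p16 start) and chr4:89311040-89311282 before Cdkn2b.
Cdkn2a upstream start: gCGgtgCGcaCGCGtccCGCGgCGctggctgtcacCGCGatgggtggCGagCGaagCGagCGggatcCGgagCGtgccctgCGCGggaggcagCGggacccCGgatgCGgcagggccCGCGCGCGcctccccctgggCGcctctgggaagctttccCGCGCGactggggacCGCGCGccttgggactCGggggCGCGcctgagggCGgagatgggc
Cdkn2a downstream start: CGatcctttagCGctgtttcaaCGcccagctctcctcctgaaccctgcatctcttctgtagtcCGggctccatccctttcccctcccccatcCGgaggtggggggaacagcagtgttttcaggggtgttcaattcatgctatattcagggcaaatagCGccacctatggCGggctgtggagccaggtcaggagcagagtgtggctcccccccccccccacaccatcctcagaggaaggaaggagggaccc
Cdkn2b start: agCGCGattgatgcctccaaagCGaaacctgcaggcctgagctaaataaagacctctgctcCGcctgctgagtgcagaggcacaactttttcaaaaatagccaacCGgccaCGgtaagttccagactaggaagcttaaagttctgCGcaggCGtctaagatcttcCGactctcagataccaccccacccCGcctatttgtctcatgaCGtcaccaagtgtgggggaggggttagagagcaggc
The upstream start of Cdkn2a had 40 CpG in the full window of 250 bases, and 1.31% of 32851 RefSeq promoters had as many. The downstream start had 7, reached by 46.3% of promoters, and Cdkn2b had 12, reached by 33.5%, against a median of 6. Bases after the starts were not counted, so these numbers do not give the CpG content of the whole start region. The E2F motif (TTTCGCGC, TTTGGCGC or TTTCCCGC on either strand) occurred once before the upstream start of Cdkn2a and in 1.53% of all promoters. The deposited values are per gene and do not tell which of these starts was used.

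Reads recovered from the deposited values numbered 10138920 to 17173072 per library, and 18964 to 21026 genes were above 0. Replicates are called biological in the series, but no label ties them to separate cultures, so p-values measure the spread between these libraries. The median absolute log2 difference between the replicates was 0.195 in untreated SUZ12-AID and 0.144 with auxin, and 0.0884 to 0.103 in the other 4 groups, while all groups shared 1 estimate of the spread. Of 13 markers of mesoderm and cardiac precursors, 12 had at least 1 TPM in each group, as did at least 6 of 8 markers of pluripotent cells.

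Before any fold change, the levels by library were as follows, in TPM, which is scaled for length. Cdkn2a stood at 5.59 and 7.49 TPM in untreated SUZ12-AID and at 88.6 and 81.1 TPM with auxin. In MTF2-AID it stood at 12.4 and 12.2 TPM untreated and 10.2 and 7.74 TPM with auxin. In AID-JARID2 it stood at 2.20 and 2.09 TPM untreated, on 13 and 11 reads, and 3.91 and 2.69 TPM with auxin, on 25 and 20 reads. Only the SUZ12-AID libraries with auxin exceeded 12.4 TPM, and no group's libraries overlapped those of the next group in the order SUZ12-AID auxin, MTF2-AID untreated, MTF2-AID auxin, SUZ12-AID untreated, AID-JARID2 auxin, AID-JARID2 untreated. The log2 fold change was 3.52 (SE 0.176, 95% interval 3.13 to 3.91, adjusted p = 1.32e-05, n = 2 and 2) in SUZ12-AID. It was -0.43 (SE 0.176, adjusted p = 0.466) in MTF2-AID and 0.44 (SE 0.176, adjusted p = 0.0813) in AID-JARID2, neither of which passed. Without replicate 2 of auxin-treated AID-JARID2 the value there was 0.64 and passed (adjusted p = 0.0418), as it did with a variance weight per line (adjusted p = 0.0315).

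**Figure D1:**
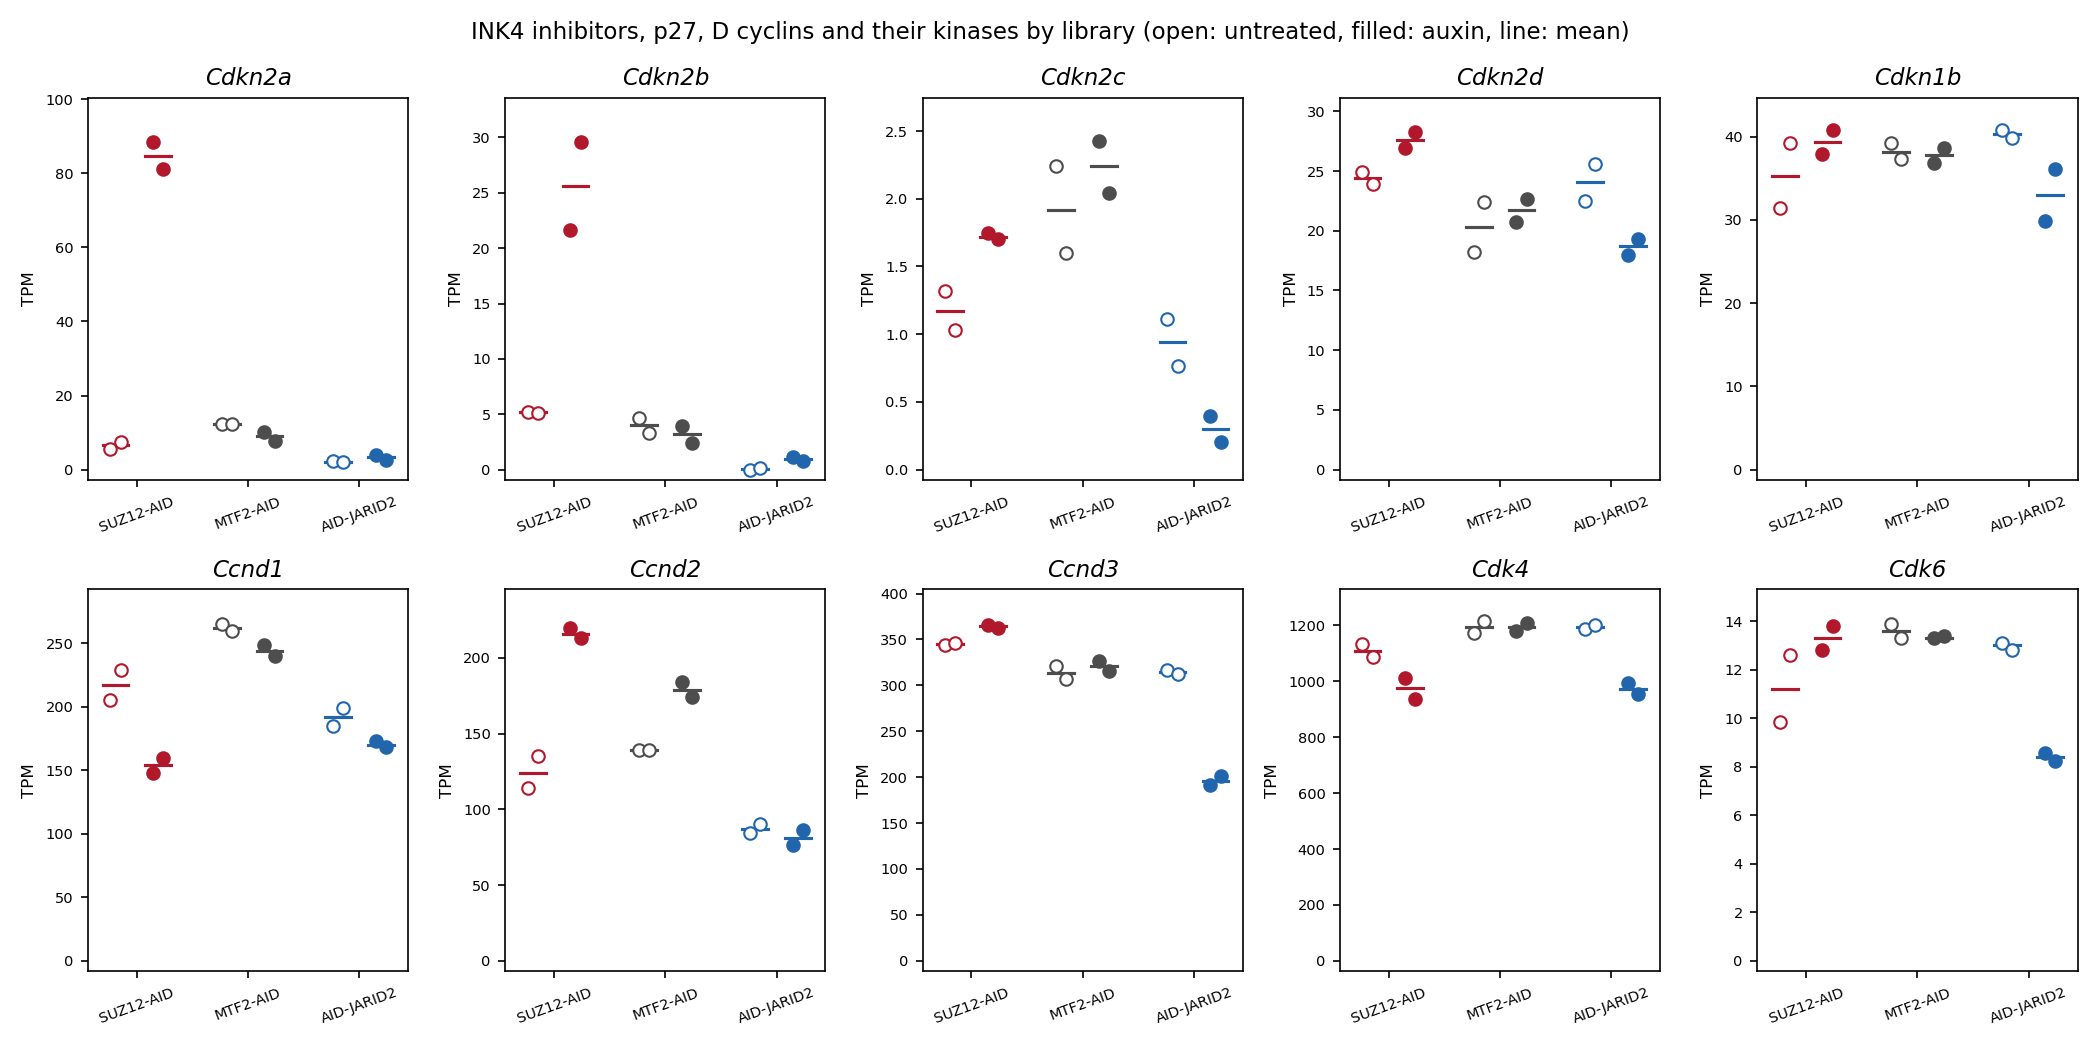
TPM of each of the 10 genes (y axis, linear) in each library of the 3 lines (x axis), open points untreated, filled points auxin, short lines the mean of 2 libraries. Cdkn2a and Cdkn2b stand high in the auxin-treated SUZ12-AID libraries (81.1 to 88.6 and 21.6 to 29.6 TPM), and Ccnd3 and Cdk6 stand low in the auxin-treated AID-JARID2 libraries. Cdk4 stands low in the auxin-treated libraries of both SUZ12-AID and AID-JARID2 (means of 975 and 974 TPM).

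Cdkn2b, which encodes p15 and answers to TGF-beta in many cells, stood at 5.23 and 5.11 TPM in untreated SUZ12-AID and at 21.6 and 29.6 TPM with auxin. In MTF2-AID it stood at 4.70 and 3.27 TPM untreated and 3.93 and 2.41 TPM with auxin. In AID-JARID2 it stood at 0.00 and 0.155 TPM untreated, which is 0 and 1 reads, and at 1.15 and 0.767 TPM with auxin, which is 9 and 7 reads. The auxin-treated SUZ12-AID libraries lay above all others, the MTF2-AID groups overlapped, and the 4 AID-JARID2 libraries lay below all others. Cdkn2b rose by a log2 fold change of 2.09 (SE 0.230, adjusted p = 0.00031) in SUZ12-AID and by 0.86 (SE 0.230, adjusted p = 0.015) in AID-JARID2, and the value in MTF2-AID was -0.27 (SE 0.230, adjusted p = 0.8). Per assigned read, the 16 reads against 1 in AID-JARID2 are a ratio of 12.9 with an exact 95% counting interval of 2.01 to 543, which covers counting error only. The call in AID-JARID2 was lost without untreated replicate 1 (0.75, adjusted p = 0.0914), without auxin replicate 1 (0.72, adjusted p = 0.103) and with a pseudocount of 5 (0.23, adjusted p = 0.219).

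The genes around the locus differed among themselves. Mtap, a methionine salvage gene 93390 bp away, stood at 139 ± 6.59 TPM (SD, n = 2) in untreated SUZ12-AID and 130 ± 0.679 TPM with auxin, a log2 fold change of -0.10 (SE 0.0710, adjusted p = 0.382). In AID-JARID2 Mtap fell by 0.21 on the log2 scale (adjusted p = 0.0453). The call was lost in 9 of 20 alternatives, among them without any of the AID-JARID2 libraries or any auxin-treated library of the other lines (highest adjusted p = 0.208). The interferon genes Ifne and Ifna1 were at 0 in all 12 libraries, and Dmrta1, which lies 368397 bp from Cdkn2b, stayed under 1 TPM and was not tested. Its mean was 0.161 TPM untreated (4 and 5 reads) and 0.814 TPM with auxin (19 and 15 reads) in SUZ12-AID, and 0.127 and 0.626 TPM in AID-JARID2. Zfp352, 907781 bp away, stood at 0.483 ± 0.0917 TPM in untreated and 3.20 ± 1.53 TPM in auxin-treated SUZ12-AID, and since it passed the filter only through the latter group its test there is not given, and Elavl2, 1939724 bp away, had 0.29 there (adjusted p = 0.321). The nearest transcribed neighbour of the locus, Mtap, did not pass in the line where Cdkn2a and Cdkn2b rose and 19.1% of all genes tested were called. On the other side Dmrta1 and Zfp352 had higher means with auxin in that line, at low levels and with no test given.

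Cdkn2c, which encodes p18, was the lowest of the 4 INK4 genes in 5 of the 6 groups. It stood at 1.32 and 1.03 TPM untreated and 1.75 and 1.70 TPM with auxin in SUZ12-AID, and at 2.24, 1.60, 2.43 and 2.04 TPM in the same order in MTF2-AID. In AID-JARID2 it stood at 1.11 and 0.766 TPM untreated (13 and 8 reads) and 0.394 and 0.203 TPM with auxin (5 and 3 reads), below every other library. It fell by 0.58 on the log2 scale in AID-JARID2 (SE 0.185, adjusted p = 0.034), and had 0.33 (adjusted p = 0.27) in SUZ12-AID and 0.16 (adjusted p = 0.878) in MTF2-AID. The call rests on few reads: per assigned read the untreated libraries had 3.25 times the auxin-treated level (exact 95% counting interval 1.38 to 8.47). It was lost when any of the 4 AID-JARID2 libraries was left out (-0.45, -0.70, -0.68 and -0.47 without untreated replicates 1 and 2 and auxin replicates 1 and 2, adjusted p = 0.0521 to 0.199) and with a pseudocount of 5 (-0.16, adjusted p = 0.0875).

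Cdkn2d, which encodes the p19 INK4 protein, was the most abundant INK4 gene in 5 of the 6 groups. It stood at 24.9 and 23.9 TPM untreated and 26.9 and 28.3 TPM with auxin in SUZ12-AID, and at 18.2 and 22.4 TPM untreated and 20.7 and 22.7 TPM with auxin in MTF2-AID. In AID-JARID2 it stood at 22.5 and 25.6 TPM untreated and 18.0 and 19.3 TPM with auxin, and these 2 groups did not overlap. Cdkn2d fell by 0.35 on the log2 scale in AID-JARID2 (SE 0.110, adjusted p = 0.0318), with 0.17 (adjusted p = 0.335) in SUZ12-AID and 0.10 (adjusted p = 0.863) in MTF2-AID. The call was lost without untreated replicate 2 (-0.26, adjusted p = 0.205), without auxin replicate 1 (-0.30, adjusted p = 0.16) or 2 (-0.39, adjusted p = 0.0768) of AID-JARID2, with no filter (adjusted p = 0.0519) and with voom on the recovered reads (adjusted p = 0.0523).

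Summed over the 4 INK4 genes, as a description with no test, the level was 37.3 ± 0.398 TPM (SD, n = 2) in untreated SUZ12-AID and 140 ± 1.20 TPM with auxin. The make-up changed with it: Cdkn2a held 17.5% of the sum untreated and 60.7% with auxin, while Cdkn2d held 65.4% and 19.8%. In MTF2-AID the sum was 38.5 ± 1.40 TPM untreated and 36.1 ± 1.69 TPM with auxin, of which Cdkn2d held 52.6% and 60.3%. In AID-JARID2 it was 27.2 ± 2.02 and 23.2 ± 0.375 TPM, with 88.3% and 80.4% from Cdkn2d and 7.92% and 14.2% from Cdkn2a. Auxin-treated SUZ12-AID was the one group in which a gene of the locus, and not Cdkn2d, made up most of this sum. The Cdkn2a part adds up p16 and ARF transcripts, which these values cannot separate, so the sum is not one of INK4 transcripts alone.

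**Figure D2:**
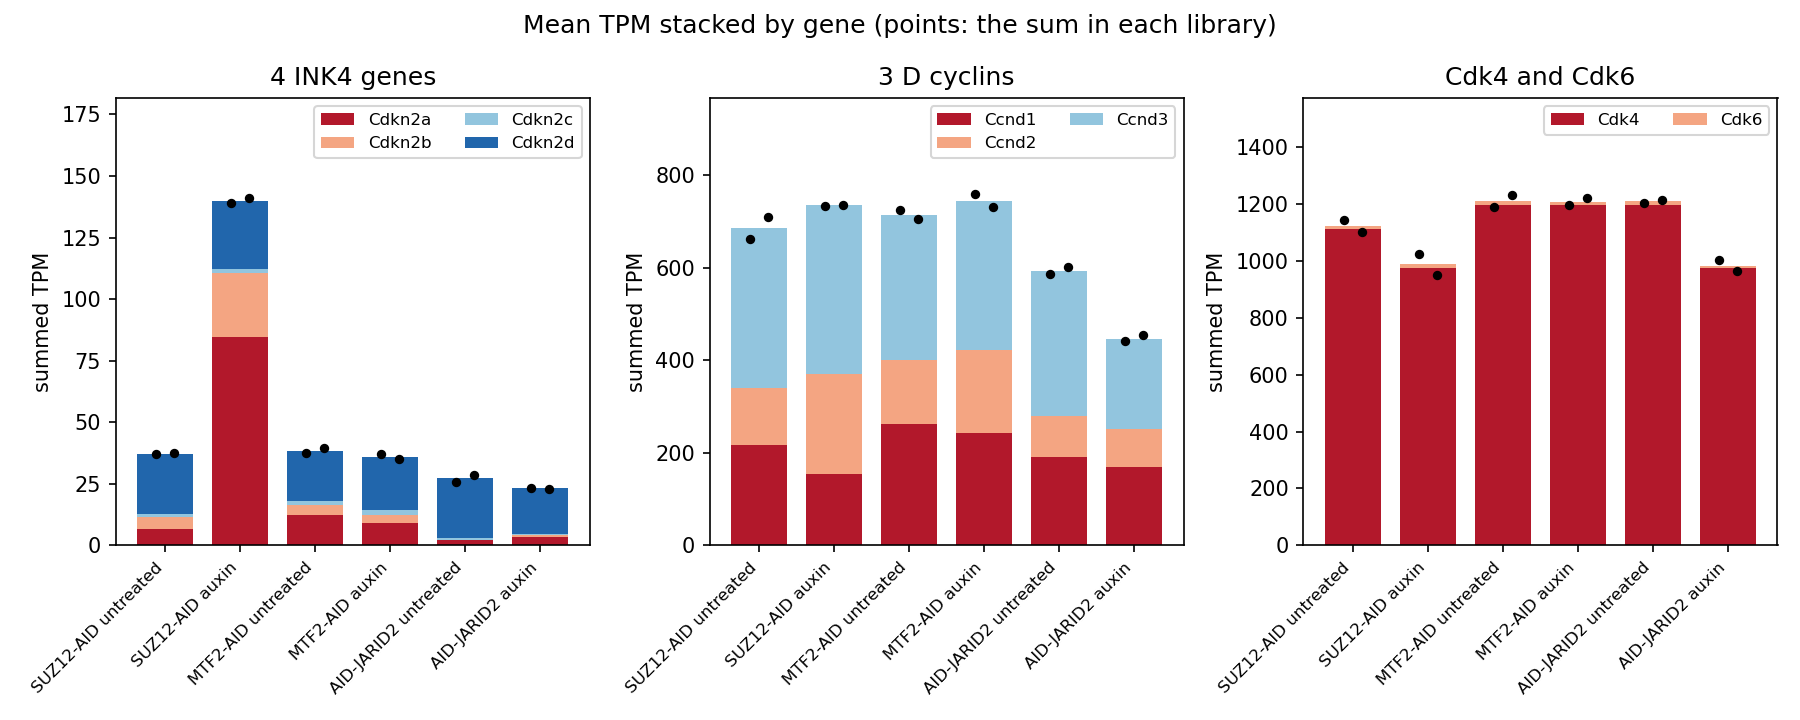
Mean TPM of the 4 INK4 genes, the 3 D cyclins, and Cdk4 with Cdk6, stacked by gene for the 6 groups (x axis), with points for the sum in each of the 2 libraries. The INK4 sum, in which Cdkn2a counts both p16 and ARF transcripts, is 140 TPM in auxin-treated SUZ12-AID and 23.2 to 38.5 TPM in the other groups. The D cyclin sum is lowest in auxin-treated AID-JARID2 (448 TPM).

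Cdkn1b encodes p27, an inhibitor of the CIP/KIP family that restrains CDK2 and also assembles cyclin D complexes. It stood at 31.4 and 39.2 TPM untreated and 37.9 and 40.8 TPM with auxin in SUZ12-AID, at 39.2, 37.3, 36.9 and 38.6 TPM in the same order in MTF2-AID, and at 40.8 and 39.8 TPM untreated and 29.9 and 36.1 TPM with auxin in AID-JARID2. Its 6 groups overlapped one after the other in the order of their means, from 40.3 to 33.0 TPM. The log2 fold changes were 0.16 (SE 0.113, adjusted p = 0.385), -0.02 (adjusted p = 0.991) and -0.29 (SE 0.113, 95% interval -0.54 to -0.03, adjusted p = 0.0744) for the lines in that order. The AID-JARID2 value passed in 8 of 20 alternatives, among them both other scalings, voom, and the fits without untreated replicate 1 or 2 of SUZ12-AID (-0.29, adjusted p = 0.0255 and 0.0257) or without auxin replicate 2 of AID-JARID2 (-0.42, adjusted p = 0.0414).

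Its relatives moved more. Cdkn1a, which encodes p21 and is a target of p53, rose in SUZ12-AID from 146 ± 6.85 to 260 ± 6.79 TPM (a log2 change of 0.83, SE 0.0546, adjusted p = 3.11e-05) and in AID-JARID2 from 72.8 ± 1.62 to 138 ± 1.62 TPM (0.91, adjusted p = 9.39e-07). In MTF2-AID Cdkn1a fell from 153 ± 0.310 to 115 ± 5.79 TPM (-0.41, SE 0.0546, adjusted p = 0.0384). That call was lost in 12 of 20 alternatives, among them median-of-ratios scaling, voom, and the fits without any MTF2-AID or any AID-JARID2 library (highest adjusted p = 0.202). Cdkn1c, the imprinted gene of p57, rose in SUZ12-AID from 132 ± 12.1 to 210 ± 5.31 TPM (0.66, adjusted p = 0.000702) and fell in AID-JARID2 from 95.1 ± 11.2 to 26.3 ± 1.17 TPM (-1.81, SE 0.0857, adjusted p = 1.81e-07).

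Among the D cyclins, which activate CDK4 and CDK6 in answer to growth factors, Ccnd1 stood at 205 and 229 TPM in untreated SUZ12-AID and at 148 and 160 TPM with auxin. In MTF2-AID it stood at 265 and 260 TPM untreated and 249 and 240 TPM with auxin, and in AID-JARID2 at 185 and 199 TPM untreated and 173 and 168 TPM with auxin. The auxin-treated libraries lay below the untreated ones in all 3 lines, and the auxin-treated SUZ12-AID libraries were the lowest of the 12. Ccnd1 fell by 0.50 on the log2 scale in SUZ12-AID (SE 0.0641, adjusted p = 0.000711). The values in MTF2-AID (-0.10, SE 0.0641, adjusted p = 0.696) and AID-JARID2 (-0.17, SE 0.0641, adjusted p = 0.0591) did not pass. The AID-JARID2 value passed in 7 of 20 alternatives, including both other scalings and the fits without untreated replicate 1 or 2 of SUZ12-AID (-0.17, adjusted p = 0.0226 and 0.0227).

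Ccnd2 moved the other way in SUZ12-AID, from 114 and 135 TPM untreated to 220 and 213 TPM with auxin. In MTF2-AID it stood at 139 and 139 TPM untreated and 184 and 174 TPM with auxin, and in AID-JARID2 at 84.4 and 90.3 TPM untreated and 76.2 and 86.1 TPM with auxin. The groups of SUZ12-AID and of MTF2-AID were each apart, and those of AID-JARID2 overlapped. Ccnd2 rose by a log2 fold change of 0.80 (SE 0.0838, adjusted p = 0.000262) in SUZ12-AID. In MTF2-AID the value was 0.36 (SE 0.0838, 95% interval 0.18 to 0.55) with an adjusted p of 0.147, and it passed in 1 of 20 alternatives, the variance weight per line (adjusted p = 0.0462). In AID-JARID2 it was -0.11 (SE 0.0838, adjusted p = 0.368).

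Ccnd2 lies on chromosome 6 at 127125162 to 127152193, on the minus strand. Its nearest neighbour Tigar, a regulator of glycolysis 15605 bp away, had a log2 fold change of 0.29 (SE 0.0998, adjusted p = 0.0702) in SUZ12-AID and rose by 0.47 (adjusted p = 0.00419) in AID-JARID2, from 17.8 ± 0.206 to 25.1 ± 0.0480 TPM. Fgf23, Fgf6 and Cracr2a stayed under 1 TPM in every library and were not tested, and Parp11 had -0.07 (adjusted p = 0.722) in SUZ12-AID and -0.04 (adjusted p = 0.783) in AID-JARID2. Prmt8 stood at 0.307 ± 0.0148 TPM in untreated and 2.08 ± 0.0290 TPM in auxin-treated AID-JARID2, the one group through which it passed the filter, so its test there is not given, and it had 0.33 (adjusted p = 0.323) in SUZ12-AID. None of the tested neighbours of Ccnd2 (Tigar, Parp11 and Prmt8) passed in SUZ12-AID, where 19.1% of all genes tested were called.

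Ccnd3, the most abundant D cyclin in all 6 groups, stood at 344 and 346 TPM untreated and 366 and 363 TPM with auxin in SUZ12-AID, and at 321 and 307 TPM untreated and 326 and 316 TPM with auxin in MTF2-AID. In AID-JARID2 it stood at 317 and 312 TPM untreated and 192 and 201 TPM with auxin, below every other library. Ccnd3 fell by 0.68 on the log2 scale there (SE 0.0430, adjusted p = 1.35e-06), with 0.08 (SE 0.0430, adjusted p = 0.241) in SUZ12-AID and 0.03 (adjusted p = 0.895) in MTF2-AID.

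The 3 D cyclins together, again with no test, summed to 686 ± 32.5 TPM (SD, n = 2) in untreated SUZ12-AID and 734 ± 1.47 TPM with auxin. The share of Ccnd1 was 31.6% untreated and 20.9% with auxin, and that of Ccnd2 18.1% and 29.5%, so Ccnd2 was above Ccnd1 with auxin. In MTF2-AID the sum was 715 ± 13.2 and 745 ± 20.1 TPM, with Ccnd2 at 19.5% and 24.1%. In AID-JARID2 it was 594 ± 10.1 TPM untreated and 448 ± 10.3 TPM with auxin, when Ccnd3 held 43.8%.

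Cdk4, by transcript level the more abundant of the 2 kinases that D cyclins activate, stood at 1133 and 1088 TPM untreated and 1013 and 937 TPM with auxin in SUZ12-AID. It stood at 1173 and 1217 TPM untreated and 1180 and 1208 TPM with auxin in MTF2-AID, and at 1189 and 1200 TPM untreated and 993 and 956 TPM with auxin in AID-JARID2. The auxin-treated SUZ12-AID and AID-JARID2 libraries overlapped each other and lay below the other 8. Cdk4 fell by 0.29 on the log2 scale in AID-JARID2 (SE 0.0448, adjusted p = 0.000574) and by 0.19 in SUZ12-AID (SE 0.0448, adjusted p = 0.016), and had -0.00 (SE 0.0448, 95% interval -0.10 to 0.10) in MTF2-AID. The SUZ12-AID call was lost with median-of-ratios scaling (-0.22, adjusted p = 0.0687), quantile normalization (-0.09, adjusted p = 0.105), a variance weight per line (adjusted p = 0.0766) and voom (-0.18, adjusted p = 0.0965), and without untreated replicate 1 (-0.16, adjusted p = 0.0524) or auxin replicate 2 (-0.13, adjusted p = 0.127) of that line.

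The other motif searched was the E-box CACGTG, bound by MYC-family factors (it reads the same on both strands). The 250 bases before the start of Cdk4 held it 4 times and those before Cdk6 1 time, while 6.02% of all promoters held it at all. The Cdk4 stretch is shown for that reason, from chr10:127063285-127063533 on the plus strand, with CpG dinucleotides in capitals, which include the centre of each E-box.
Cdk4 start: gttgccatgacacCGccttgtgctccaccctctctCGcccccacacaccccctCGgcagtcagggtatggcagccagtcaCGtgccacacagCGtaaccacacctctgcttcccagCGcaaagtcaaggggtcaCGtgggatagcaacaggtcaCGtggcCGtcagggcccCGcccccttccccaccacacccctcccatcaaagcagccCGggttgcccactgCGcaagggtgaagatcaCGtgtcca
Among the genes of factors that bind this motif, Myc, named after its values were seen, fell in AID-JARID2 from 154 ± 5.79 to 137 ± 5.66 TPM (-0.16, adjusted p = 0.05). Its call was lost in 12 of 20 alternatives, among them without any AID-JARID2 or MTF2-AID library (highest adjusted p = 0.277). Mycn rose in AID-JARID2 from 119 ± 0.405 to 204 ± 0.889 TPM (0.77, SE 0.0688, adjusted p = 1.53e-05). Cdk4 and Cdk6 fell in the same libraries, and a link to these factors was not tested. A match of letters is no evidence of binding.

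Cdk6, the paralog of Cdk4, had group means of 8.39 to 13.6 TPM, against 974 to 1195 TPM for Cdk4. It stood at 9.84 and 12.6 TPM untreated and 12.8 and 13.8 TPM with auxin in SUZ12-AID, and at 13.9, 13.3, 13.3 and 13.4 TPM in the same order in MTF2-AID. In AID-JARID2 it stood at 13.1 and 12.8 TPM untreated and 8.55 and 8.23 TPM with auxin, the lowest of the 12 libraries. Cdk6 fell by 0.57 on the log2 scale in AID-JARID2 (SE 0.116, adjusted p = 0.00337), and had 0.23 (SE 0.116, adjusted p = 0.211) in SUZ12-AID and -0.03 (adjusted p = 0.982) in MTF2-AID. In SUZ12-AID it passed with voom (0.26, adjusted p = 0.0365) and without untreated replicate 2 (0.40, adjusted p = 0.0236). Cdk4 and Cdk6 together gave 1122 ± 30.0 and 988 ± 52.7 TPM in SUZ12-AID, 1209 ± 30.5 and 1207 ± 19.3 TPM in MTF2-AID, and 1208 ± 7.60 and 983 ± 26.3 TPM in AID-JARID2, untreated and with auxin.

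**Figure D3:**
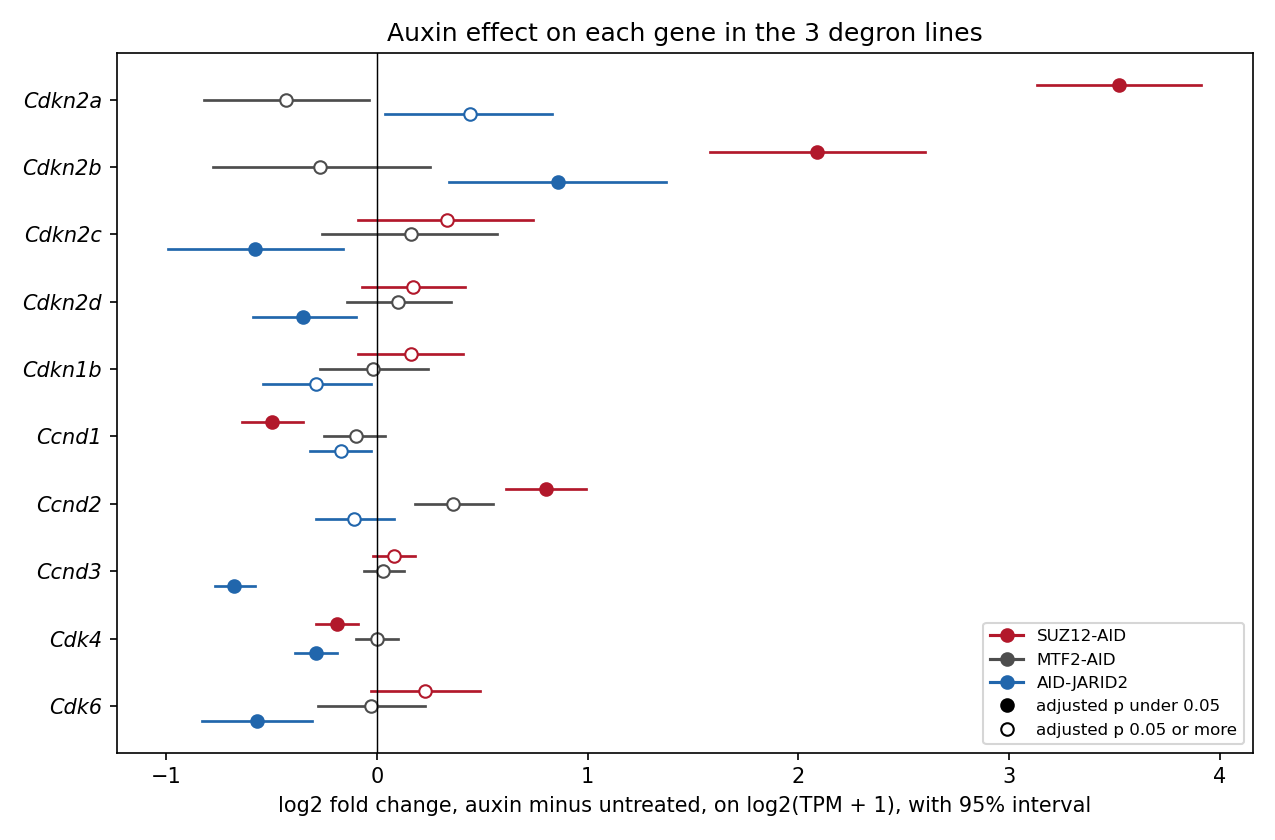
Log2 fold change of auxin against untreated with its 95% interval (x axis) for the 10 genes (y axis) in the 3 lines, from the fit over all 12 libraries, with filled points for an adjusted p under 0.05. SUZ12-AID has filled points at Cdkn2a (3.52), Cdkn2b (2.09), Ccnd2 (0.80), Ccnd1 (-0.50) and Cdk4 (-0.19), AID-JARID2 has 6 filled points, of which 5 are below 0, and MTF2-AID has none.

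In all, 5 of the 10 genes were called in SUZ12-AID, where 19.1% of the 15663 genes tested were. They were 3 higher (Cdkn2a, Cdkn2b and Ccnd2; 15.1% of all genes were called higher) and 2 lower (Ccnd1 and Cdk4; 4.05% of all genes). In AID-JARID2 6 of 10 were called against 36.5% of all genes, 1 higher (Cdkn2b; 19.5% of all genes) and 5 lower (Cdkn2c, Cdkn2d, Ccnd3, Cdk4 and Cdk6; 17.0% of all genes). In MTF2-AID 0 of 10 were called by limma against 0.0638% of all genes (0.0447% higher and 0.0192% lower), with 2 of the 10 at an unadjusted p under 0.05, and voom on the recovered reads also called 0, with 1 at an unadjusted p under 0.05. Over all 15663 genes, 1489 had an unadjusted p under 0.05 in MTF2-AID by limma and 1305 by voom. The median log2 fold change of the 10 genes was 0.20 in SUZ12-AID, -0.01 in MTF2-AID and -0.29 in AID-JARID2, beside 0.06, 0.01 and 0.01 over all genes. Of the calls over all genes in SUZ12-AID, 78.8% were higher, a share of 72.4% with median-of-ratios scaling and 53.1% with quantile normalization. Without untreated replicate 1 of SUZ12-AID it was 55.9%, as the lower calls went from 635 to 1427. Cdkn2a, Cdkn2b, Ccnd1 and Ccnd2 in SUZ12-AID and Ccnd3, Cdk4 and Cdk6 in AID-JARID2 kept their calls in all 20 alternatives.

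The effects were then compared between lines in the same fit, each line having its own untreated libraries. The auxin effect on Cdkn2a was smaller in AID-JARID2 than in SUZ12-AID by 3.08 on the log2 scale (SE 0.249, adjusted p = 2.1e-05), and that on Ccnd2 by 0.90 (SE 0.118, adjusted p = 0.000475). For Ccnd3 the difference of AID-JARID2 minus SUZ12-AID was -0.76 (SE 0.0608, adjusted p = 1.99e-05) and for Cdk6 -0.80 (SE 0.164, adjusted p = 0.0059). For Ccnd1 it was 0.32 (SE 0.0907, adjusted p = 0.0274; lost without untreated replicate 2 or auxin replicate 1 of SUZ12-AID, without untreated replicate 1 or either auxin replicate of AID-JARID2 and with quantile normalization, highest adjusted p = 0.104), and for Cdk4 -0.11 (SE 0.0633, 95% interval -0.25 to 0.04, adjusted p = 0.265). In total 8 of 10 genes differed between these lines, where 24.0% of all genes did, 6 between AID-JARID2 and MTF2-AID (24.3% of all genes) and 4 between MTF2-AID and SUZ12-AID (11.1% of all genes). These 3 sets share their lines.

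MTF2-AID minus SUZ12-AID gave -3.95 (SE 0.249, adjusted p = 0.000183) for Cdkn2a and -2.36 (SE 0.326, adjusted p = 0.00202) for Cdkn2b, both kept in all 20 alternatives. For Cdkn2b, AID-JARID2 minus SUZ12-AID was -1.23 (SE 0.326, adjusted p = 0.021), but the sign turned with a pseudocount of 0.1 (0.44, adjusted p = 0.663) and with voom (0.72, adjusted p = 0.63) (untreated AID-JARID2 held 1 read in all). It also missed the threshold without auxin replicate 2 of SUZ12-AID (-1.02, adjusted p = 0.0777) and without untreated replicate 2 (-1.13, adjusted p = 0.0723) or auxin replicate 2 (-1.09, adjusted p = 0.0805) of AID-JARID2. The group means of Cdkn2b went from 5.17 to 25.6 TPM in SUZ12-AID, a ratio of 4.95, and from 0.0775 to 0.957 TPM in AID-JARID2, a ratio of 12.4, so which line had the larger effect depended on the scale.

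The untreated lines already differed, and these comparisons share their groups with each other and with the auxin comparisons. Untreated AID-JARID2 was lower than untreated SUZ12-AID for Cdkn2a (-1.25 on the log2 scale, SE 0.176, adjusted p = 0.000595), Cdkn2b (-2.52, adjusted p = 3.79e-05), Ccnd2 (-0.50, adjusted p = 0.00169) and Ccnd3 (-0.13, adjusted p = 0.0467), which is 4 of 10 genes where 27.6% of all genes were called. The Ccnd3 call was lost in 14 of 20 alternatives, without any of the 12 libraries among them (highest adjusted p = 0.204). Against untreated MTF2-AID, 5 of 10 genes were lower in AID-JARID2 (33.4% of all genes were called): Cdkn2a (-2.08, adjusted p = 1.69e-05), Cdkn2b (-2.20, adjusted p = 6.84e-05), Cdkn2c (-0.59, adjusted p = 0.0344), Ccnd1 (-0.45, adjusted p = 0.000506) and Ccnd2 (-0.67, adjusted p = 0.000221). The Cdkn2c call was lost in 6 of 20 alternatives. These were a pseudocount of 0.1 (adjusted p = 0.0602), quantile normalization (adjusted p = 0.131), voom (adjusted p = 0.0756), and the fits without replicate 1 of untreated MTF2-AID (-0.43) or replicate 1 or 2 of untreated AID-JARID2 (-0.71 and -0.46). Untreated MTF2-AID was higher than untreated SUZ12-AID for Cdkn2a (0.83, SE 0.176, adjusted p = 0.0187) and Ccnd1 (0.27, SE 0.0641, adjusted p = 0.0288), 2 of 10 genes beside 8.65% of all genes. Both of the latter calls were lost without replicate 1 of untreated SUZ12-AID (0.65 for Cdkn2a and 0.20 for Ccnd1) or either replicate of untreated MTF2-AID. The Cdkn2a call was also lost with a variance weight per line (adjusted p = 0.0523), and the Ccnd1 call with no filter (adjusted p = 0.0549). Before auxin, then, the locus was 5.74 times higher at Cdkn2a in MTF2-AID than in AID-JARID2, and Cdkn2b was close to 0 in the latter.

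Downstream of cyclin D, the RB family and E2F factors, 13 genes, had 1 called higher and 2 lower in SUZ12-AID (median -0.12), beside 15.1% higher and 4.05% lower among all genes. In AID-JARID2 3 of the 13 were higher and 3 lower (median 0.04), which is near the 19.5% higher and 17.0% lower among all genes. In SUZ12-AID 6 were lower without untreated replicate 1, and in AID-JARID2 1 was higher without untreated replicate 1 or auxin replicate 2. Rb1 rose in SUZ12-AID from 5.58 ± 1.35 to 10.5 ± 2.05 TPM (0.81, SE 0.199, adjusted p = 0.0183; lost without untreated replicate 1 or auxin replicate 2 and with a variance weight per line, highest adjusted p = 0.147). E2f1, an activator that E2F itself induces, fell in SUZ12-AID from 49.0 ± 3.35 to 38.7 ± 2.50 TPM (-0.33, SE 0.0752, adjusted p = 0.0122; lost without auxin replicate 2 and with a variance weight per line, highest adjusted p = 0.0991). E2f4, a repressor, fell in SUZ12-AID from 190 ± 4.26 to 170 ± 5.65 TPM (-0.16, adjusted p = 0.0286). The fall was not called in 5 of 20 alternatives, among them without untreated replicate 2 or either auxin replicate (highest adjusted p = 0.134). E2f4 rose in AID-JARID2 from 205 ± 4.67 to 302 ± 5.45 TPM (0.55, adjusted p = 7.97e-06), where E2f2 also rose (0.53, adjusted p = 0.0134; lost without untreated replicate 1 or auxin replicate 2, highest adjusted p = 0.108) and E2f5 fell (-0.47, adjusted p = 0.000398). Among cyclin E, cyclin A and CDK2 genes, 5 tested, Ccne1 rose in AID-JARID2 from 125 ± 2.57 to 227 ± 3.83 TPM (0.86, SE 0.0578, adjusted p = 2.17e-06). Cdc25a, the phosphatase that activates CDK2, fell in SUZ12-AID (-0.31, adjusted p = 0.0121). It missed the threshold without either auxin replicate and with a variance weight per line (highest adjusted p = 0.0658). In AID-JARID2 Cdc25a rose (0.24, adjusted p = 0.021). This call was lost without untreated replicate 2 or either auxin replicate (highest adjusted p = 0.142).

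Of 22 E2F target genes of S phase, 0 were called higher and 14 lower in SUZ12-AID (4.05% of all genes were lower), with a median log2 fold change of -0.26 against 0.06 for all genes. Uhrf1, which maintains DNA methylation at replication, fell from 252 ± 12.7 to 186 ± 1.98 TPM (-0.44, SE 0.0537, adjusted p = 0.00055), and Cdc6 (-0.35, adjusted p = 0.00928) and Mcm5 (-0.32, adjusted p = 0.00126), which license replication origins, fell with it. The count was 7 lower without auxin replicate 2 of SUZ12-AID and 6 with a variance weight per line, and none was called higher under either. In AID-JARID2 1 was higher and 7 lower (median -0.11), among them Rfc4 (-0.44, adjusted p = 0.000182), Cdc45 (-0.43, adjusted p = 0.00109) and Gins2 (-0.35, adjusted p = 0.00655; lost without untreated replicate 2, adjusted p = 0.0617), beside 17.0% of all genes lower, with 4 lower without untreated replicate 1 or 2 or auxin replicate 2 of that line. In MTF2-AID 0 of 22 were called by limma, with 1 at an unadjusted p under 0.05, and voom called 0, with 0 at an unadjusted p under 0.05 (median 0.06). Over all 15663 genes, 1489 by limma and 1305 by voom had an unadjusted p under 0.05 there.

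Of 17 mitosis genes, 0 were higher and 8 lower in both SUZ12-AID (median -0.26) and AID-JARID2 (median -0.10), beside 4.05% and 17.0% of all genes lower. Bub1b of the spindle checkpoint fell in SUZ12-AID from 132 ± 15.2 to 99.2 ± 1.62 TPM (-0.40, SE 0.0776, adjusted p = 0.00586), and the mitotic kinase gene Aurka (-0.34, adjusted p = 0.0028) fell there too. Top2a, the topoisomerase of dividing cells, fell in SUZ12-AID (-0.34, adjusted p = 0.0181; lost in 5 of 20 alternatives, among them without untreated replicate 2 or either auxin replicate, highest adjusted p = 0.108) and in AID-JARID2 (-0.38, adjusted p = 0.00558; lost without untreated replicate 2, adjusted p = 0.0522). In AID-JARID2 the mitotic cyclin gene Ccnb2 fell from 293 ± 6.75 to 229 ± 4.06 TPM (-0.36, SE 0.0512, adjusted p = 0.000393). The proliferation marker Mki67 fell there from 173 ± 11.6 to 120 ± 8.56 TPM (-0.52, SE 0.169, adjusted p = 0.0353). This was lost in 7 of 20 alternatives, among them without any AID-JARID2 library or either auxin replicate of MTF2-AID (highest adjusted p = 0.168). These counts turned on single libraries: in SUZ12-AID 15 were lower without untreated replicate 1, 5 without untreated replicate 2 or auxin replicate 1 and 4 without auxin replicate 2, and in AID-JARID2 4, 3, 3 and 4 were lower without untreated replicates 1 and 2 and auxin replicates 1 and 2. In MTF2-AID 0 of 17 were called by limma, with 1 at an unadjusted p under 0.05, and voom called 0, with 1 at an unadjusted p under 0.05. Over all 15663 genes, 1489 by limma and 1305 by voom had an unadjusted p under 0.05 there.

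Downstream of ARF, the list of p53 and its targets, 19 genes, had 14 higher and 0 lower in SUZ12-AID (median 0.74) and 15 higher and 1 lower, Sesn1, in AID-JARID2 (median 0.78), where 15.1% and 19.5% of all genes were higher. Cdkn2a itself had a log2 fold change of 3.52 in the former line. In the latter it had 0.44 (95% interval 0.04 to 0.83), which did not pass. Whether ARF had a part in the values of this list was not tested. Perp, a membrane protein of p53-driven death, rose from 60.7 ± 2.20 to 169 ± 21.8 TPM in SUZ12-AID (1.46, SE 0.109, adjusted p = 5.93e-05) and from 30.0 ± 2.42 to 147 ± 9.92 TPM in AID-JARID2 (2.26, adjusted p = 2.17e-07). Plk2 rose by 1.11 (adjusted p = 8.32e-05) and 1.39 (adjusted p = 1.82e-06), and Eda2r, a death receptor, by 1.09 (adjusted p = 0.000624) and 1.52 (adjusted p = 1.65e-05). In MTF2-AID 0 were higher and 1, Cdkn1a, lower (median -0.20 against 0.01 for all genes). There 9 of 19 had an unadjusted p under 0.05, beside 1489 of 15663 over all genes. With voom, which called 0 of the list, it was 10, beside 1305 over all genes. With a variance weight per line 5 of the list were lower, beside 109 of all genes. The median of this list kept its sign and lay between 0.61 and 0.83 in SUZ12-AID and AID-JARID2 in the scalings, weights, block, voom and left-out libraries tried.

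**Figure D4:**
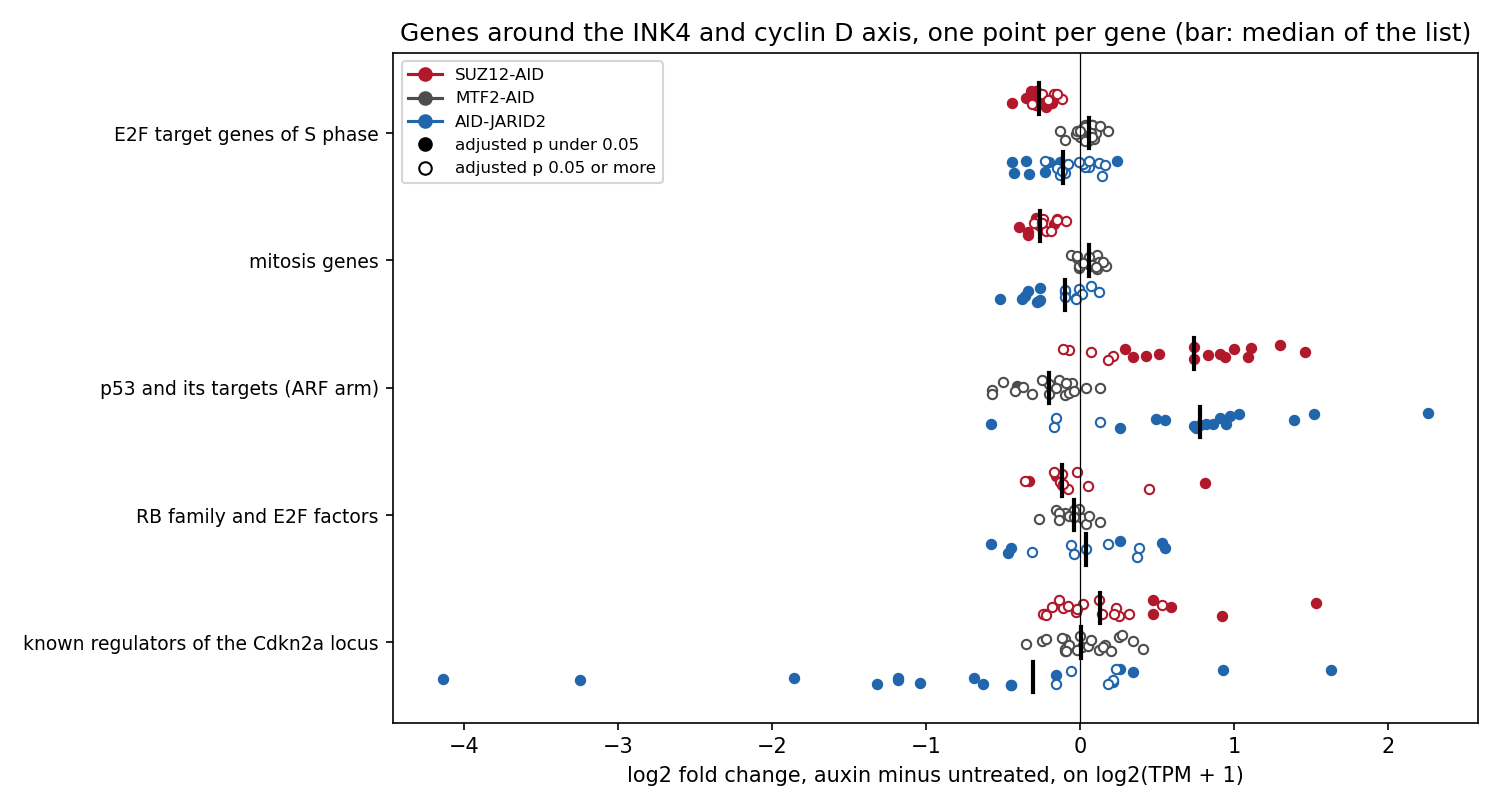
Log2 fold change of auxin against untreated (x axis) for every tested gene of 5 lists (y axis) in the 3 lines, filled where the adjusted p was under 0.05, with a bar at each list's median. The S phase and mitosis lists lie left of 0 in SUZ12-AID (median -0.26 for both), and the p53 list has medians of 0.74 in SUZ12-AID, 0.78 in AID-JARID2 and -0.20 in MTF2-AID.

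Upstream, 22 known regulators of the Cdkn2a locus were followed, most of them Polycomb and transcription factor genes. In SUZ12-AID 5 were higher and 1 lower (median 0.13), beside 15.1% and 4.05% of all genes. Bmi1, a PRC1 subunit that represses the locus, rose from 6.65 ± 0.197 to 21.1 ± 0.678 TPM (1.53, SE 0.105, adjusted p = 3.94e-05), and Ets2, an activator of p16, rose from 24.2 ± 3.25 to 36.9 ± 3.39 TPM (0.59, adjusted p = 0.00279). In AID-JARID2 5 were higher and 12 lower (median -0.30), beside 19.5% and 17.0% of all genes. There Tbx2 and Tbx3, T-box repressors of the locus that also act in heart development, fell from 40.4 ± 1.89 to 1.34 ± 0.143 TPM (-4.14, SE 0.108, adjusted p = 3.8e-09) and from 135 ± 0.854 to 13.3 ± 1.59 TPM (-3.25, adjusted p = 1.22e-07), and Ets1 fell by 1.86 on the log2 scale (adjusted p = 3.32e-06). The counts moved with single libraries: in SUZ12-AID 3 were higher without its auxin replicate 2 or without either auxin replicate of MTF2-AID and 4 lower without untreated replicate 1, and in AID-JARID2 3 were higher without untreated replicate 1 and 2 without each of its other libraries.

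Among 11 other regulators of cyclin D, activators and repressors alike, 4 were higher and 1 lower in SUZ12-AID. In AID-JARID2 2 were higher and 2 lower, which is near the 19.5% and 17.0% among all genes there. In SUZ12-AID, where 15.1% and 4.05% of all genes were called, 2 were higher without auxin replicate 2 and 3 lower without untreated replicate 1. Fos, a growth-factor response gene, rose in SUZ12-AID from 9.52 ± 0.967 to 18.3 ± 2.35 TPM (0.88, adjusted p = 0.00657; lost without auxin replicate 2 and with a variance weight per line, highest adjusted p = 0.0689). Foxo1, a factor that represses Ccnd1 and Ccnd2 in many cells, rose in both, from 10.1 ± 0.996 to 18.5 ± 2.74 TPM (0.80, adjusted p = 0.00129) and from 9.27 ± 0.522 to 40.2 ± 0.461 TPM (2.00, adjusted p = 7.41e-07), and Gli2, an effector of Hedgehog signalling, fell in both (-0.71, adjusted p = 0.00747, and -1.58, adjusted p = 1.82e-05). Of 11 genes for the turnover of p27 and cyclin D, 1 was higher and 1 lower in SUZ12-AID, beside 15.1% and 4.05% of all genes. In AID-JARID2 2 were higher and 1 lower, which is not above the 19.5% and 17.0% among all genes. Usp2, which deubiquitinates cyclin D1, rose in both, from 3.45 ± 0.0331 to 7.79 ± 0.0455 TPM (0.98, adjusted p = 0.00125) and from 2.29 ± 0.0499 to 4.18 ± 0.552 TPM (0.65, adjusted p = 0.00488; lost without auxin replicate 1, adjusted p = 0.0512). Cks1b, the cofactor for p27 ubiquitination, rose in AID-JARID2 (0.20, adjusted p = 0.00388) and fell in SUZ12-AID (-0.17, adjusted p = 0.0177; lost in 5 of 20 alternatives, among them both other scalings and without auxin replicate 2, highest adjusted p = 0.133). Ddb1, an adaptor of CUL4 ubiquitin ligases, fell in AID-JARID2 (-0.22, adjusted p = 0.0417). This one was lost in 10 of 20 alternatives, among them without any AID-JARID2 or MTF2-AID library (highest adjusted p = 0.297). Of the 3 genes of the CDK-activating kinase, Mnat1 fell in AID-JARID2 (-0.63, SE 0.0828, adjusted p = 0.000217), and none was called in SUZ12-AID.

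Over the 12 libraries, which share groups and lines, the patterns most like that of Cdkn2a were those of Cldn5, Sohlh2, Kank3, Rsad2 and Smpd3, with Pearson r of 0.973 to 0.981 among 10917 candidate genes. Cldn5, an endothelial tight junction gene, was at 2.01 TPM in untreated and 17.9 TPM in auxin-treated SUZ12-AID. For Cdkn2b they were Fam124a, Rhod, Sdc4, Ctsd and Anxa8 (0.976 to 0.992), for Ccnd1 Tro, Rassf2, Cdk2, Limk1 and Tyro3 (0.948 to 0.959), and for Ccnd2 Snhg6, Rhox9, Tnc, Tgfb2 and Fam213a (0.957 to 0.980). Among the 10 genes themselves, Cdkn2a had r of 0.947 with Cdkn2b, 0.869 with Ccnd2, -0.262 with Ccnd1 and -0.386 with Cdk4, and Ccnd1 had 0.786 with Cdk4. These are descriptions over 6 groups of 2.

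Markers of cell state, given as levels with no test, differed between the same groups. In AID-JARID2 the summed level of 8 pluripotency markers was 395 to 414 TPM untreated and 2732 to 2747 TPM with auxin. That of 13 mesoderm and cardiac precursor markers was 2876 to 2950 and 424 to 497 TPM, with a lower mean in 13 of 13. In SUZ12-AID the pluripotency sum was 144 to 166 and 257 to 312 TPM. The mesoderm and cardiac sum there was 2716 to 3062 and 1594 to 1679 TPM, but most of it was Hand1 (2421 and 1033 TPM). Without Hand1 it was 426 to 510 and 602 to 604 TPM, and 8 of 13 means were higher with auxin, among them Hand2 (48.2 and 160 TPM) and Nkx2-5 (2.25 and 25.9 TPM). In MTF2-AID the pluripotency sum was 185 to 194 and 187 to 192 TPM and the mesoderm and cardiac sum 1836 to 1838 and 1866 to 1884 TPM.

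Endothelial markers, 7 genes including Cldn5, summed to 98.6 to 118 TPM untreated and 139 to 150 TPM with auxin in SUZ12-AID. In the same order they summed to 106 to 110 and 64.3 to 72.7 TPM in MTF2-AID, and to 21.7 to 23.2 and 8.39 to 11.2 TPM in AID-JARID2. Pecam1, the largest of them, stood at 83.8 TPM untreated and 44.9 TPM with auxin in SUZ12-AID. The other 6 summed to 20.6 and 28.6 TPM in its untreated libraries and to as much as 103 TPM with auxin. In MTF2-AID 7 of 7 means were lower with auxin. In AID-JARID2 Pecam1 stood at 19.3 TPM untreated and 2.68 TPM with auxin. The other 6 summed there to 2.61 to 3.76 and 5.38 to 8.87 TPM, with 4 of 7 means higher and 3 lower. The 5 blood markers summed to 37.7 to 51.2 TPM in untreated and 1.74 to 3.72 TPM in auxin-treated SUZ12-AID. They summed to 7.29 to 11.9 and 1.43 to 2.57 TPM in MTF2-AID, and to 1.67 to 2.19 and 1.54 to 1.79 TPM in AID-JARID2. Hbb-bh1, an embryonic globin, stood at 34.4 TPM untreated and 0.606 TPM with auxin in SUZ12-AID. Ptprc was at 0 in all groups except auxin-treated AID-JARID2 (0.0671 ± 0.0522 TPM). The 5 neural markers summed to 7.32 to 7.77 and 18.0 TPM in SUZ12-AID, 20.2 to 22.4 and 23.1 to 23.7 TPM in MTF2-AID, and 12.2 to 14.3 and 74.8 to 81.4 TPM in AID-JARID2, where Tubb3 held nearly all of it (13.0 and 77.5 TPM). The 5 endoderm markers summed to at most 5.86 TPM in every group. Epithelial and trophoblast markers summed to 2292 to 2421 and 3401 to 3653 TPM in SUZ12-AID, 1751 to 1782 and 2106 to 2132 TPM in MTF2-AID, and 2086 to 2176 and 1046 to 1098 TPM in AID-JARID2. In AID-JARID2 4 of their 7 means were lower and 3 higher, among the latter Epcam (82.8 and 342 TPM). The part of these shifts in the values of the INK4 and cyclin D genes was not tested, and in bulk RNA fewer cells of a type and less RNA per cell cannot be told apart.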

How the data were processed

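Polyadenylated RNA of 12 libraries (2 for each of 3 degron lines, untreated or with auxin) was measured with a stranded dUTP protocol, per the labels' protocols. The authors deposited 1 table of TPM values (transcript abundances corrected for gene length and for sequencing depth) with 35856 gene symbols, and every library column was matched to its group by name. Reads were aligned with STAR 2.6.1d to mm10, per the submitters' processing notes; the sources used here do not name the counting program, its strand setting or the annotation. To recover reads, each library was brought to a common scale, and the smallest whole numbers that fitted all libraries were sought gene by gene. This gave whole reads for 100% of values, within 0.001 reads, and hence the depth. A gene above 0 in only 1 library is always fitted by 1 read, so its true number is not known.

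The fit took the 15663 genes that reached 1 TPM in 2 or more libraries. A linear model (limma 3.58.1, R 4.3.3, eBayes with a trend) was fitted to log2(TPM + 1) with 1 term per group. Residual degrees of freedom were 6 and prior ones 3.9. P-values are two-sided, with Benjamini-Hochberg adjustment over all genes kept, and a call is an adjusted p under 0.05. A fold change on this scale understates the change of low genes. The script was tested on simulated data. The alternatives were pseudocounts of 0.1 and 5, no filter, median-of-ratios scaling, quantile normalization, a variance weight per line, the replicate number as a block, voom on the recovered reads, and leaving out each library in turn. The 10 genes, the pathway and marker lists, the tests and the naming rule were chosen with earlier results of these data known. By that rule all 10 genes are given in full, a list is given by its counts, its median and at most 3 called members a line with a mean of at least 5 TPM, the 3 nearest protein-coding genes on each side of Cdkn2a/Cdkn2b and of Ccnd2 are named, and likeness is the Pearson r of log2(TPM + 1) over the 12 libraries. A called gene picked by this rule was left out of the text. Gene positions are those of GENCODE vM21 on mm10, and promoter sequences are from RefSeq on GRCm38.p6, cut to the bases outside the genes' exons.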

Additional observations from a re-analysis of the deposited data

Results flagged for a closer look

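For each of the results given here the auxin effect differed between 2 lines by a test of the difference itself (an interaction term in limma, adjusted over all genes); all values are differences of log2 fold changes.

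AID-JARID2 minus SUZ12-AID gave -3.08 for Cdkn2a, -1.23 for Cdkn2b, -0.90 for Cdkn2c, -0.52 for Cdkn2d, 0.32 for Ccnd1, -0.90 for Ccnd2, -0.76 for Ccnd3 and -0.80 for Cdk6. Those for Cdkn2a, Ccnd2, Ccnd3 and Cdk6 kept their call in all 20 alternatives. That for Cdkn2b was lost in 7 and changed sign in 2 of them (0.44 with a pseudocount of 0.1 and 0.72 with voom), and also missed the threshold without auxin replicate 2 of SUZ12-AID or without untreated or auxin replicate 2 of AID-JARID2 (highest adjusted p = 0.663). That for Ccnd1 was lost in 6, among them without untreated replicate 2 or auxin replicate 1 of SUZ12-AID and without untreated replicate 1 or either auxin replicate of AID-JARID2 (highest adjusted p = 0.104). That for Cdkn2c was lost in 8, among them without untreated replicate 2 or either auxin replicate of SUZ12-AID and without untreated replicate 1 or auxin replicate 2 of AID-JARID2 (highest adjusted p = 0.146). That for Cdkn2d was lost in 9, among them without the same SUZ12-AID libraries and without untreated replicate 2 or either auxin replicate of AID-JARID2 (highest adjusted p = 0.129).

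MTF2-AID minus SUZ12-AID gave -3.95 for Cdkn2a, -2.36 for Cdkn2b, 0.39 for Ccnd1 and -0.44 for Ccnd2. Both differences of the locus genes kept their call in all 20. The Ccnd1 difference was lost without any MTF2-AID library or without auxin replicate 1 of SUZ12-AID (highest adjusted p = 0.0796). The Ccnd2 difference was lost in 11 of 20 alternatives, among them without any MTF2-AID library, either auxin replicate or untreated replicate 1 of SUZ12-AID, or either untreated replicate of AID-JARID2 (highest adjusted p = 0.144).

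AID-JARID2 minus MTF2-AID gave 0.86 for Cdkn2a, 1.13 for Cdkn2b, -0.47 for Ccnd2, -0.71 for Ccnd3, -0.29 for Cdk4 and -0.55 for Cdk6. For Ccnd3 the call held in all 20 alternatives. For Cdkn2a it was lost in 8 (highest adjusted p = 0.125) and for Cdkn2b in 7 (highest adjusted p = 0.194), in both cases without untreated replicate 1 or auxin replicate 2 of MTF2-AID and without either untreated replicate or auxin replicate 1 of AID-JARID2, and for Cdkn2a also without untreated replicate 2 of MTF2-AID. For Ccnd2 it was lost without auxin replicate 1 of MTF2-AID and without untreated replicate 2 or auxin replicate 1 of AID-JARID2 (highest adjusted p = 0.0676), for Cdk6 without any MTF2-AID or AID-JARID2 library (highest adjusted p = 0.107), and for Cdk4 with median-of-ratios scaling and voom (highest adjusted p = 0.0878).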

How the results depend on the processing

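No auxin effect on the 10 genes that was called changed sign, but the difference between AID-JARID2 and SUZ12-AID in Cdkn2b (-1.23) turned to 0.44 with a pseudocount of 0.1 and to 0.72 with voom. Of the 30 auxin effects on the 10 genes, 21 stayed on the same side of the threshold in all 20 alternatives, which includes effects that never passed. The called effects that kept their call in all 20 were Cdkn2a, Cdkn2b, Ccnd1 and Ccnd2 in SUZ12-AID and Ccnd3, Cdk4 and Cdk6 in AID-JARID2. The number of genes called in SUZ12-AID was 2997, 1194 with a variance weight per line, and 1374 to 3428 when single libraries were left out, lowest without auxin replicate 2. In MTF2-AID it was 10, with 6 and 30 at pseudocounts of 0.1 and 5, 21 with no filter, 17 with quantile normalization, 164 with a variance weight per line, 4 with the replicate block, and 5 to 38 when libraries were left out. The balance of these calls was 7 higher and 3 lower, and turned to 12 and 18 with a pseudocount of 5, 9 and 12 with no filter, 55 and 109 with the variance weight and 3 and 10 with voom, and to 18 and 20 without either untreated replicate of SUZ12-AID. For MTF2-AID minus SUZ12-AID it was 1740, with 1103 under the variance weight and 936 to 2462 without single libraries, lowest without auxin replicate 2 of SUZ12-AID. For untreated MTF2-AID minus SUZ12-AID it was 1355, with 845 under the variance weight and 522 to 4089 without single libraries, lowest without untreated replicate 1 of MTF2-AID and highest without untreated replicate 2 of SUZ12-AID. Untreated AID-JARID2 against SUZ12-AID gave 4319 (2356 to 5634) and against MTF2-AID 5233 (3399 to 6114), both lowest without untreated replicate 2 of AID-JARID2. The cause was not tested. With quantile normalization the share of higher calls was 35.3% against 18.0% for MTF2-AID minus SUZ12-AID and 50.5% against 37.5% for AID-JARID2 minus SUZ12-AID. For untreated MTF2-AID minus SUZ12-AID it was 63.5%, with 53.8% under median-of-ratios scaling and 50.7% under quantile normalization, and for untreated AID-JARID2 minus SUZ12-AID 55.2%, with 44.3% and 47.1%.

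Replicate numbers did not pair the samples: deviations of same-numbered libraries correlated at 0.0958 in SUZ12-AID, -0.0388 in MTF2-AID and 0.00803 in AID-JARID2. With the replicate block the auxin effects on Cdkn1b (adjusted p = 0.0477) and Ccnd1 (adjusted p = 0.0248) in AID-JARID2 passed, as did the differences between lines for Cdk4 (MTF2-AID minus SUZ12-AID, adjusted p = 0.0432), Cdkn2d (AID-JARID2 minus MTF2-AID, adjusted p = 0.0256) and Cdkn1b (AID-JARID2 minus SUZ12-AID, adjusted p = 0.0463), and no call of the 10 genes was lost. Where an arm was left with 1 library, it was assumed to vary like the others. Depth limits Cdkn2a and Cdkn2b in AID-JARID2 and Cdkn2c throughout, with at most 25 reads a library.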
